A study of Rattus norvegicus with 6 samples.

Results

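Matrix metalloproteinases (MMPs) and the proteins that hold them in check were followed as 10 genes in cultured cells of the rat nucleus pulposus, the soft core of the intervertebral disc. The genes are the proteases Mmp2, Mmp3, Mmp11, Mmp13, Mmp14 and Mmp19 and the inhibitors Timp1, Timp2, Timp3 and Reck. They were taken by name, through the Entrez identifiers of the deposited count table, and all 10 were among its 17139 genes. All 10 also passed the filter on low counts that left 12413 genes to test. The primary cells had received 10 µM bradykinin (bradykinin group, n = 3 libraries) or no treatment (control group, n = 3 libraries), and their polyadenylated RNA was sequenced. Bradykinin is a short vasoactive peptide that acts mainly through the kinin receptor B2. The samples of the bradykinin group bear the title B2R, and their treatment label was followed here. The series design text asks how bradykinin acts on senescence and on the turnover of extracellular matrix in these cells. Rat age, sex, strain and the length of the treatment are not given in the sources used here, nor is whether replicates came from separate animals or cultures, so a p-value speaks only of how far these libraries scatter, and that scatter may be technical.

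MMPs are zinc-dependent endopeptidases that are made as inactive proforms and that cut the collagens, proteoglycans and adhesive glycoproteins of the matrix. The tissue inhibitors of metalloproteinases (TIMPs) bind the active site of these enzymes, and RECK is a membrane-anchored glycoprotein that blocks several of them at the cell surface. In the degenerating disc, loss of aggrecan and collagen is commonly discussed as a shift in the balance between MMPs and TIMPs. MMP3 (stromelysin 1) cuts proteoglycans and activates other proMMPs, MMP13 (collagenase 3) cuts fibrillar collagen, and MMP14, an enzyme anchored in the cell membrane, activates proMMP2 with the help of TIMP2.

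The promoters of 7 of the 10 genes were found in a RefSeq table of the GRCr8 assembly, as windows from 250 bases before to 50 bases after the start of the gene. Those of Mmp3, Mmp13 and Timp1 are shown because these genes form the Mmp3 to Timp1 and Mmp13 to Timp1 ratios described below and because the letters of the windows differ. Timp2, Timp3 and Reck also have windows and form ratios, but their windows are not printed. Capitals mark TGANTCA, the AP-1 motif, and TATAAA, the TATA box, searched on both strands. The Mmp3 window lies at chr8:12925031-12925330 on the plus strand, that of Mmp13 at chr8:12782579-12782878 on the plus strand, and that of Timp1 at chrX:3771073-3771372 on the minus strand, and each is printed in the direction of its gene.
Mmp3: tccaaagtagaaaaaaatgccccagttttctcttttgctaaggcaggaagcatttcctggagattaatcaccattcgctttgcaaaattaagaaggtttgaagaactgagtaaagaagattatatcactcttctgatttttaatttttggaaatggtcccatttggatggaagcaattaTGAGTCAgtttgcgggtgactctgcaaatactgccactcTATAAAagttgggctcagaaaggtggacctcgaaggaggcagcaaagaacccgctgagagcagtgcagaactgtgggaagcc
Mmp13: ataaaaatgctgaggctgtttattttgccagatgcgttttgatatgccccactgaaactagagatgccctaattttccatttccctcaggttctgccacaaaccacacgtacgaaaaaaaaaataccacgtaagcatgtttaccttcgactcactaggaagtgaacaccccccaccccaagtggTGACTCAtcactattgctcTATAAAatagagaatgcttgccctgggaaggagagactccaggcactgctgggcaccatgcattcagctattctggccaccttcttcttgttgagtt
Timp1: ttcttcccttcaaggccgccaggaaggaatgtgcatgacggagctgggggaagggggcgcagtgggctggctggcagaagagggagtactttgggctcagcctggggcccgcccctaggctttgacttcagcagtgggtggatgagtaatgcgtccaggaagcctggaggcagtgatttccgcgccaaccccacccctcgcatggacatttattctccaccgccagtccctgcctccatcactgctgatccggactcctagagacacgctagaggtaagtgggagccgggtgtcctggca

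Counted from the first base of the gene as 0, Mmp3 held TGAGTCA at -71 to -65 and TATAAA at -32 to -27, and Mmp13 held TGACTCA at -66 to -60 and TATAAA at -47 to -42. The AP-1 letters were present in 7.33% and the TATA letters in 14.2% of all 33469 windows. Neither was found as an exact match in the windows of Timp1, Mmp11, Timp2, Timp3 or Reck. Those 5 windows held GGGCGG, the GC box, which 33.1% of all windows contain, with 4 copies in Mmp11, 1 in Timp1, 1 in Timp2, 3 in Timp3 and 4 in Reck. Mmp13 alone among the 7 held AACCACA, a RUNX motif found in 5.57% of all windows. AGGAAG, an ETS motif present in 34.5% of all windows, occurred in those of Mmp3, Mmp13 and Timp1. The Mmp3 and Mmp13 windows were 42.0% and 45.3% G and C, that of Timp1 was 61.3%, and the other 4 were 68.0% to 70.3%, against a median of 51.7% over all windows. None of these motifs overlapped another in the 7 windows. A match of letters is a description of the sequence and does not show that a factor binds there. Nor does the lack of a match show that none binds. Variants of the letters, such as TGAGTAA in the Timp1 window, were not searched.

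**Figure D1:**
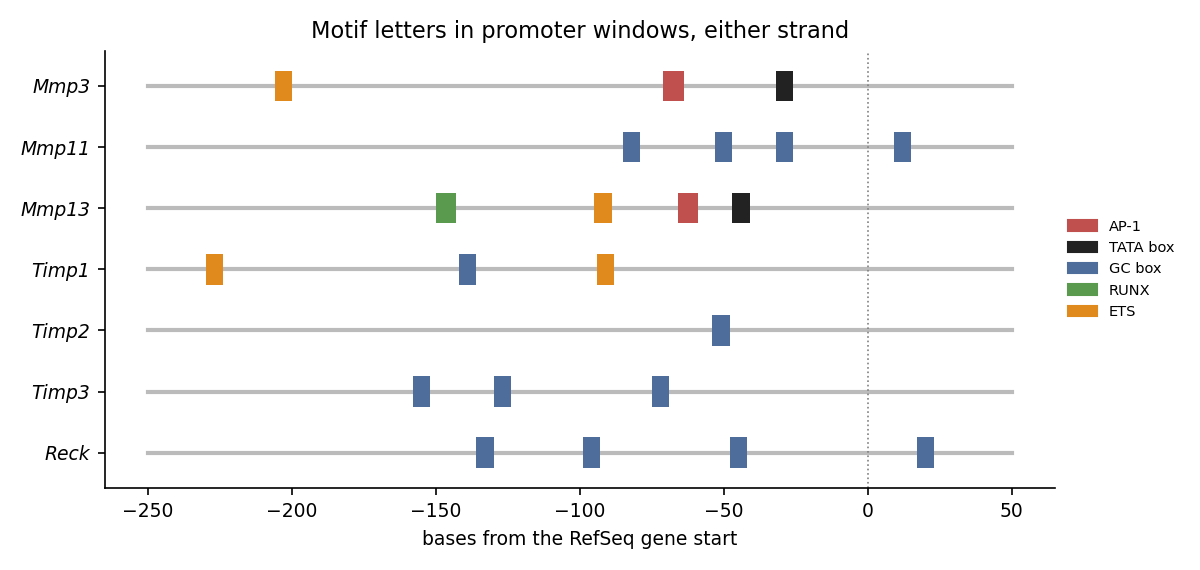
Positions of 5 motifs (AP-1, TATA box, GC box, RUNX and ETS letters, either strand) in the promoter windows of 7 genes. The x axis is the distance in bases from the RefSeq start of the gene, and each bar is 1 match. Exact matches of the AP-1 and TATA letters occur in Mmp3 and Mmp13, and those of the GC box letters in the other 5 windows.

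Levels are in CPM, which relate counts to TMM-scaled library sizes and compare 1 gene between libraries but not genes with each other, since they are not divided by gene length. Total counts per library were 12883067 to 14604917 in the bradykinin group and 14252966 to 15462764 in the control group. The library of bradykinin replicate 3 was unlike the rest. Across tested genes, the SD of its log2 deviation from the mean of the other libraries was 0.57, against 0.22 to 0.25 in those libraries. Its counts differed from those of its fellow bradykinin libraries by a chi-square of 76.4 and 79.9 per degree of freedom, while bradykinin replicates 1 and 2 differed by 5.22 and pairs of controls by 2.30 to 3.74. Against controls the value was 6.79 to 9.75 for bradykinin replicates 1 and 2, which were thus nearer to the controls than to bradykinin replicate 3. For bradykinin replicate 3 it was 80.4 to 84.1. The results for the 10 genes and the ratios are therefore also given without it. Among the markers of nucleus pulposus cells, Acan, Pax1, Foxf1 and Sox9 were detected at 15.3 CPM or more in every library, but Krt19 had 0 or 1 count and Col2a1 0 to 2 counts per library. Cd24 was at 4.33 to 7.44 CPM, and Krt8 (10 to 27 counts) and Car12 (7 to 13 counts) were low. Car3, a carbonic anhydrase gene, was at 2.60, 3.34 and 3.58 CPM with bradykinin and 7.66, 8.49 and 8.11 CPM in controls, and it fell without bradykinin replicate 3 by 1.44 ± 0.19 on the log2 scale (edgeR adjusted p = 0.0010, against 0.383 in the 6 libraries). The 6 fibroblast and annulus markers, all in the table, summed to 60829 to 76641 CPM with bradykinin and 65372 to 69811 CPM in controls. Most of each sum came from Col1a1 and Col1a2. Tnmd, another of these markers, was low, at 0.394, 0.727 and 1.11 CPM with bradykinin and 0.390, 0.351 and 0.541 CPM in controls. It did not pass the filter on low counts. Markers of other cell types were near 0 for neutrophils (1 of 4 listed genes in the table, summed level 0 CPM in every bradykinin library and 0 to 0.0676 CPM in controls) and endothelial cells (3 of 5 genes, 0.236 to 0.727 CPM with bradykinin and 0.211 to 0.909 CPM in controls).

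None of the 10 genes passed the test in the 6 libraries, and the values of the proteases lay mostly lower with bradykinin. Summed over the 6 proteases, the level was 1472, 1650.2 and 1438 CPM in bradykinin replicates 1, 2 and 3, and 1775, 1684 and 1657 CPM in control replicates 1, 2 and 3. All 3 bradykinin libraries thus lay below all 3 controls, although bradykinin replicate 2 and control replicate 3 nearly met. Most of each sum came from Mmp2, whose groups overlapped, and Mmp14, so it says little of the other proteases. Summed over the 4 inhibitors, the level was 890.2, 943 and 1055 CPM with bradykinin and 940.5, 939 and 927 CPM in controls, and the groups overlapped. Timp2 made up most of each of these sums. In bulk RNA, fewer cells that express a gene and less of its RNA per cell cannot be told apart. All 6 proteases had a negative log2 fold change (bradykinin over control), with a median of -0.17, against 0.01 over all tested genes, and this direction held with RLE and library-total scaling. Of the 4 inhibitors, Timp1 had a positive and the other 3 a negative one, with a median of -0.11.

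In the edgeR quasi-likelihood fit, with Benjamini-Hochberg adjusted p over all tested genes, 0 of the 10 genes reached 0.05 or less, against a background of 0.0% of all genes (0.342% by DESeq2, which called 0 of the 10). At an unadjusted p under 0.05 there was 1 member by edgeR (Mmp14), 1 by limma-voom and 2 by DESeq2, against 6.84% of all genes by edgeR. Groups did not overlap in 5 of the 10 genes, against 17.5% of tested genes. Bradykinin libraries were the lower ones in Mmp11, Mmp13, Mmp14 and Timp2, where the background for that direction was 8.71%, and the higher ones in Timp1, where it was 8.84%. Scaled by library totals, there were 4 such genes, with Mmp19 added and Mmp13 and Timp2 lost, against 17.7% of tested genes under that scaling. Without bradykinin replicate 3, 1 of the 10 genes changed, Mmp3, which fell. In that fit 3.1% of all genes changed, 1.15% downward and 1.95% upward. Groups did not overlap in 7 of the 10 genes there, against 31.7% of tested genes (7 and 32.9% with library totals). By TMM, 5 were lower with bradykinin, where the background was 15.5%, and 2 higher. Timp3 was among the higher ones by a narrow margin, at 18.52 and 18.96 CPM against at most 18.46 CPM in controls.

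**Figure D2:**
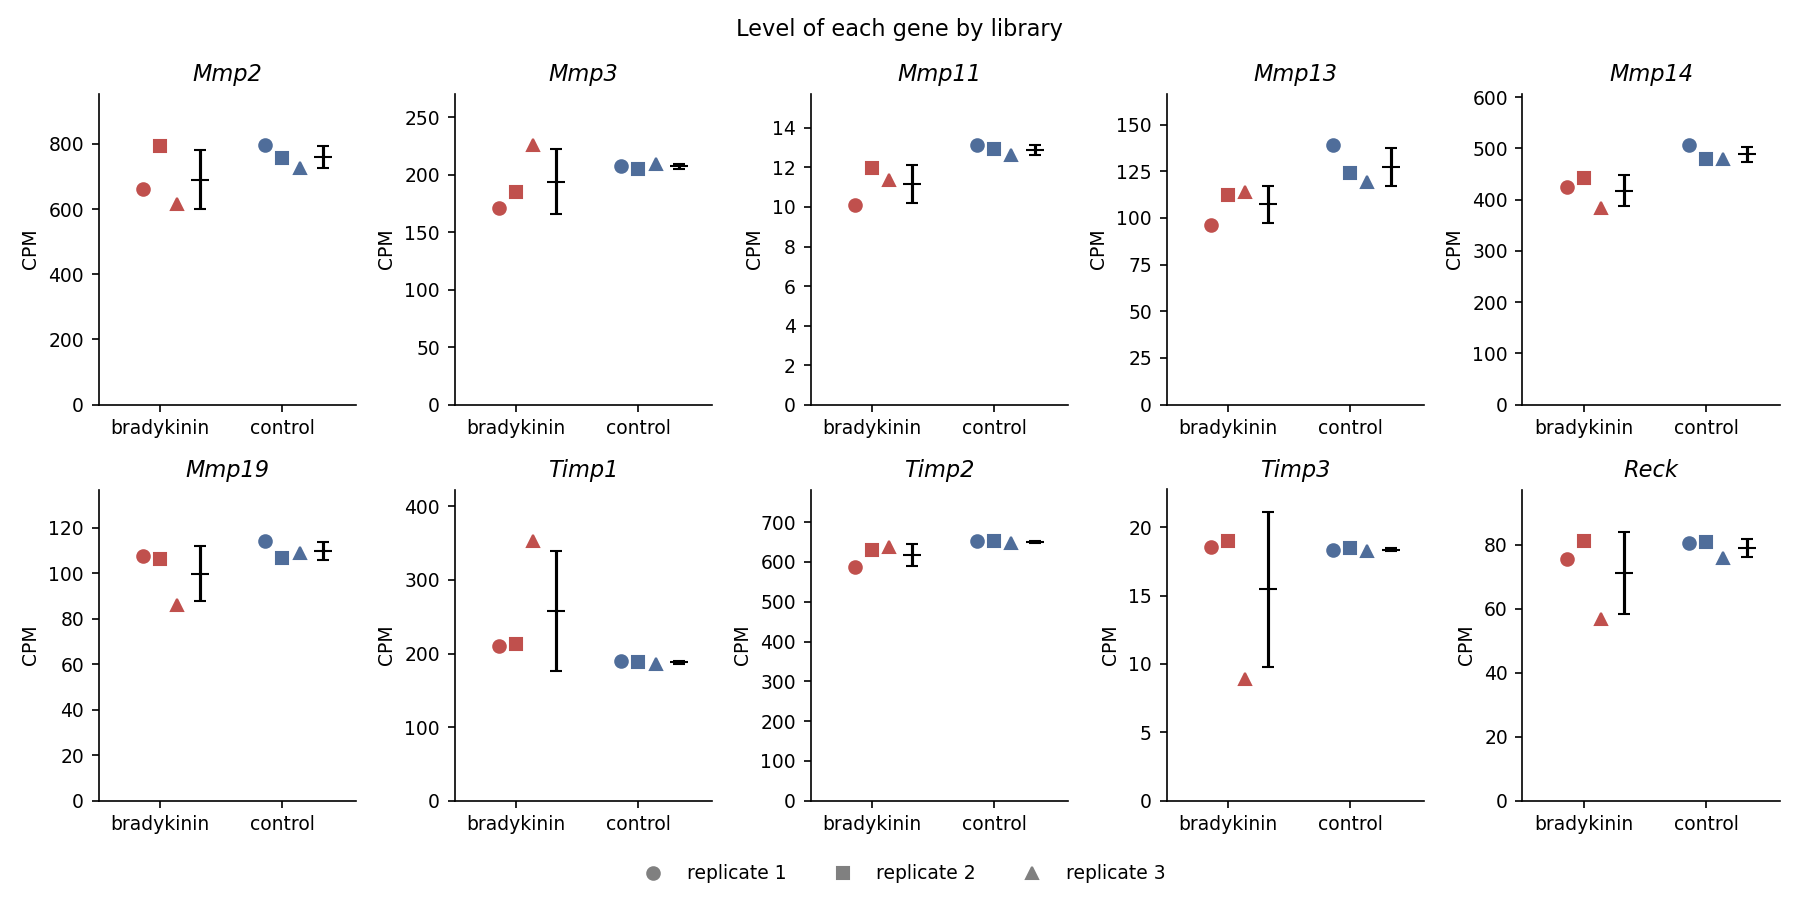
Level of each gene in CPM (y axis, from 0) in the 3 bradykinin and the 3 control libraries, with replicates 1, 2 and 3 as circle, square and triangle. Black bars are the mean ± SD (n = 3). Control libraries lie close together, with SDs of 0.30% to 8.04% of the mean, while those of bradykinin libraries are 4.43% to 36.7% of the mean.

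Mmp3, the stromelysin gene, was at 171, 185 and 226 CPM in the bradykinin libraries, in the order of their replicate numbers, and at 207, 205 and 209.5 CPM in the control libraries. Bradykinin replicates 1 and 2 lay below every control library and replicate 3 above every one, so that the groups overlapped. The log2 fold change was -0.10 ± 0.12 (SE, 95% interval -0.37 to 0.18, edgeR adjusted p = 0.776). Without bradykinin replicate 3 it fell by 0.22 ± 0.05 on the log2 scale (95% interval -0.33 to -0.11, edgeR adjusted p = 0.0293). Over the other ways of fitting these 5 libraries, or 4 of them, the adjusted p ran from 0.00924 to 0.164. It was above 0.05 by edgeR when bradykinin replicate 1 (0.164) or control replicate 1 (0.102), 2 (0.112) or 3 (0.106) was left out as well.

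Mmp13, the collagenase gene, had 96.1, 112 and 114 CPM in the bradykinin libraries and 139, 124 and 119 CPM in the control libraries. Every bradykinin library was below every control, with replicate 1 the lowest. Its log2 fold change was -0.25 ± 0.11 in the 6 libraries (95% interval -0.51 to 0.01, edgeR adjusted p = 0.737). In the 5 libraries it was -0.29 ± 0.08 (edgeR adjusted p = 0.0621), and DESeq2 on the same 5 libraries put it past the threshold (adjusted p = 0.0232). So did edgeR with library-total scaling (adjusted p = 0.0348), but limma-voom did not (0.0682). By edgeR it was above 0.05 when control replicate 1 (0.235), 2 (0.153) or 3 (0.0694) was left out as well.

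Mmp14, which encodes the membrane-anchored MT1-MMP, had the smallest unadjusted p of the 10 genes (edgeR, 0.0449). It was at 425, 442 and 384 CPM with bradykinin and at 506, 479 and 479.9 CPM in controls, with all bradykinin libraries below all controls and replicate 3 the lowest. The log2 fold change was -0.23 ± 0.09 (95% interval -0.45 to -0.01, edgeR adjusted p = 0.727), and -0.17 ± 0.04 without bradykinin replicate 3 (edgeR adjusted p = 0.0573). On those 5 libraries both limma-voom (adjusted p = 0.0474) and DESeq2 (0.0146) called it lower. By edgeR, library-total scaling did so too (adjusted p = 0.0242), but RLE factors did not (0.0535). It was also above 0.05 by edgeR when control replicate 1 (0.208), 2 (0.156) or 3 (0.124) was left out as well.

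Mmp2, the gelatinase that MMP14 activates, was at 662, 792 and 617 CPM in the bradykinin libraries and 795, 756 and 726 CPM in controls. Bradykinin replicate 2 lay within the control range and replicates 1 and 3 below it. The log2 fold change was -0.14 ± 0.12 (95% interval -0.41 to 0.14, edgeR adjusted p = 0.746), and -0.06 ± 0.06 in the 5 libraries.

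Mmp11 and Mmp19 are less studied members. Mmp11 (stromelysin 3) is activated inside the cell by furin and has little action on classical matrix proteins, and it was the gene with the fewest reads of the 10. It had 10.1, 11.99 and 11.4 CPM with bradykinin and 13.1, 12.9 and 12.6 CPM in controls, with no overlap between the groups. Its lowest count, 128 reads, carries a counting SD of 8.84%, and its log2 fold change was -0.21 ± 0.13 (edgeR adjusted p = 0.737; -0.22 ± 0.12 in the 5 libraries). Mmp19, a protease with substrates in basement membranes, was at 108, 106 and 86.2 CPM with bradykinin and 114, 107 and 109 CPM in controls. Its lower value rested on bradykinin replicate 3: the log2 fold change was -0.14 ± 0.11 in the 6 libraries (edgeR adjusted p = 0.741) and -0.04 ± 0.05 without that library.

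Timp1, the secreted inhibitor that binds MMP3 and MMP13 among others, was the only one of the 10 genes higher with bradykinin in the 6 libraries. Bradykinin libraries had 209.9, 213 and 352 CPM, and control libraries 190.3, 188 and 185 CPM. All bradykinin libraries lay above all controls, and replicate 3 was 1.88 times the control mean. In reads, these were 2663, 2927 and 5416 counts with bradykinin and 2930, 2682 and 2740 in controls. The log2 fold change was 0.46 ± 0.20 (95% interval -0.01 to 0.93, edgeR adjusted p = 0.733) in the 6 libraries. Without bradykinin replicate 3 it was 0.17 ± 0.04 (95% interval 0.07 to 0.27, edgeR adjusted p = 0.061), a smaller value with a narrower interval.

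Timp2, which both inhibits MMP2 and serves as the bridge by which MMP14 activates it, was at 586, 629.9 and 637 CPM with bradykinin and 651, 652 and 648 CPM in controls. The groups did not overlap, the SD of the controls was 0.301% of their mean, and the log2 fold change was -0.07 ± 0.09 (95% interval -0.28 to 0.13, edgeR adjusted p = 0.766). In the 5 libraries it was -0.10 ± 0.04 (edgeR adjusted p = 0.311). Its row in the count table also carries the identifier of Cep295nl, a gene that lies inside Timp2 in RefSeq, and reads of that gene cannot be told apart here.

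Timp3 is the TIMP that binds to the matrix and that also blocks ADAM17 and the aggrecanases. It had 18.5, 18.96 and 8.92 CPM in bradykinin replicates 1, 2 and 3 and 18.3, 18.5 and 18.3 CPM in controls. Replicates 1 and 2 were at the control level, while replicate 3 was at 0.486 times the control mean. The log2 fold change was -0.25 ± 0.27 in the 6 libraries (95% interval -0.87 to 0.37, edgeR adjusted p = 0.756) and 0.03 ± 0.10 without bradykinin replicate 3, where its direction turned, except with library-total scaling, which gave a value of about 0.

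Reck had 75.6, 81.01 and 56.6 CPM with bradykinin and 80.5, 80.7 and 75.8 CPM in controls, again with replicate 3 as the low library. Its log2 fold change was -0.15 ± 0.14 (edgeR adjusted p = 0.746) and -0.01 ± 0.06 in the 5 libraries (95% interval -0.14 to 0.12). Syn1 and Syn3, which overlap Timp1 and Timp3 in RefSeq, had 38 to 86 and 2 to 17 counts per library, and Chchd10, which overlaps Mmp11, had 1 to 10. These counts are small beside those of Timp1 (2663 to 5416 counts), Timp3 (137 to 282) and Mmp11 (128 to 202).

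**Figure D3:**
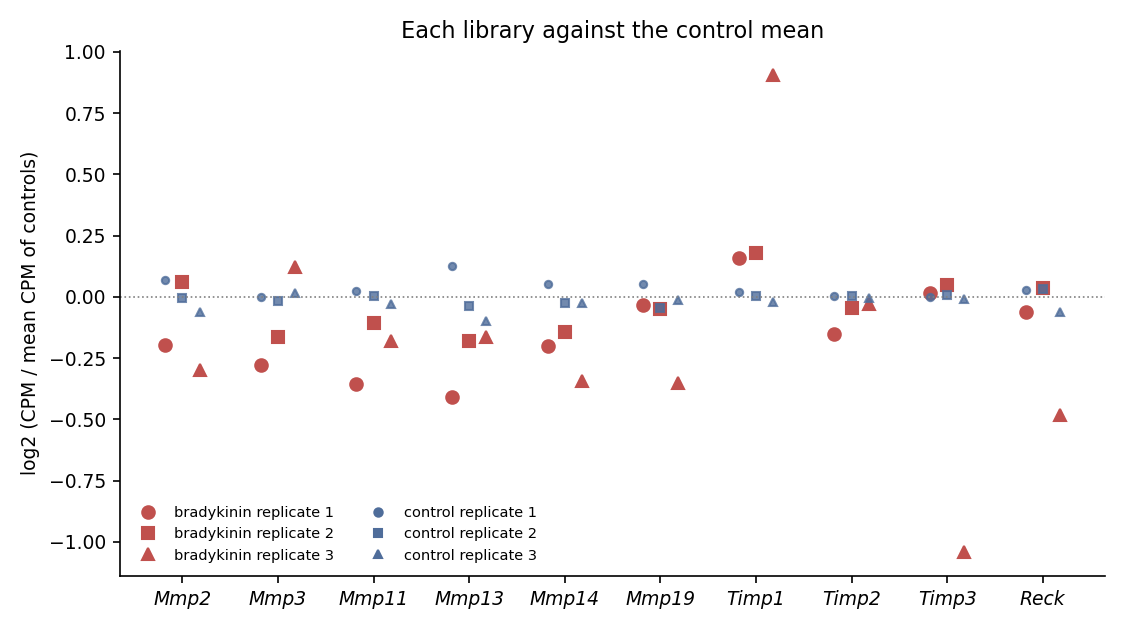
Level of each gene in every library as the log2 ratio to the mean of the controls (y axis), with bradykinin libraries in red, control libraries in blue and replicates 1, 2 and 3 as circle, square and triangle. Bradykinin replicate 3 lies at 0.91 for Timp1, -1.04 for Timp3 and -0.48 for Reck, apart from the other 5 libraries.

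**Figure D4:**
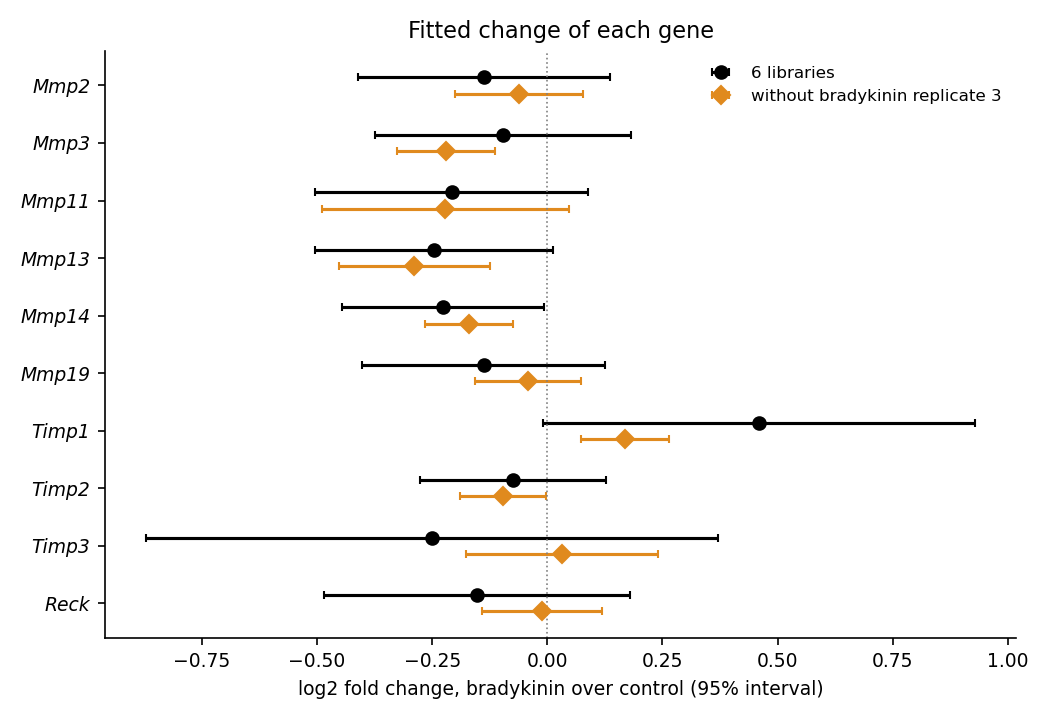
Fitted log2 fold change of each gene (x axis, bradykinin over control) with its 95% interval from edgeR, in the 6 libraries (black circles) and without bradykinin replicate 3 (orange diamonds). The intervals of Mmp3, Mmp13, Mmp14, Timp1 and, narrowly, Timp2 exclude 0 without that library, but after adjustment over all genes Mmp3 alone passed. An unadjusted edgeR p under 0.05, which these genes had in that fit, was reached there by 15.2% of all genes.

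The ratio of protease to inhibitor counts within a library does not depend on how libraries are scaled, and 6 pairs of an enzyme with an inhibitor that binds it were compared. The Mmp3 to Timp1 ratio was 0.815, 0.871 and 0.64 in the bradykinin libraries and 1.09, 1.09 and 1.13 in the control libraries. The Mmp13 to Timp1 ratio was 0.458, 0.529 and 0.323 with bradykinin and 0.73, 0.66 and 0.643 in controls. Both ratios were lower in 3 of 3 bradykinin libraries than in any control, by log2 differences of -0.52 and -0.66, and without bradykinin replicate 3 by -0.39 and -0.46. In bradykinin replicate 3 Mmp3 itself was above every control (226 CPM against 205 to 209.5), and Timp1 was at 352 CPM. Both ratios share Timp1 as the denominator, so they are not separate observations. Nor do they add to the levels given above. Mmp13 lay below and Timp1 above every control in each bradykinin library, which fixes the order of the Mmp13 to Timp1 ratio. The same holds for Mmp3 to Timp1 in bradykinin replicates 1 and 2. The exact permutation test over libraries (two-sided) gave p = 0.1 for each, the smallest that 3 against 3 libraries allow, so no pair could pass (Benjamini-Hochberg over the 6 pairs, 0.2).

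Of the pairs with TIMP2, the Mmp14 to Timp2 ratio was 0.726, 0.702 and 0.604 with bradykinin and 0.776, 0.736 and 0.74 in controls. These groups also did not overlap (log2 difference -0.15, exact permutation p = 0.1, adjusted 0.2), and without bradykinin replicate 3 the log2 difference was -0.07. The Mmp2 to Timp2 ratio was 1.13, 1.26 and 0.969 with bradykinin and 1.22, 1.16 and 1.12 in controls, and overlapped (log2 difference -0.07, and 0.03 without bradykinin replicate 3; exact permutation p = 0.8, adjusted 0.96). The Mmp13 to Timp3 ratio was 5.19, 5.93 and 12.8 with bradykinin and 7.59, 6.73 and 6.53 in controls, so that replicates 1 and 2 lay below the controls and replicate 3 above them (exact permutation p = 1, adjusted 1). Its log2 difference of 0.08 turned to -0.32 without bradykinin replicate 3. The Mmp14 to Reck ratio was 5.63, 5.46 and 6.79 with bradykinin and 6.29, 5.94 and 6.33 in controls, with replicate 3 again on the other side (log2 difference -0.06, and -0.16 without it; exact permutation p = 0.6, adjusted 0.9).

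**Figure D5:**
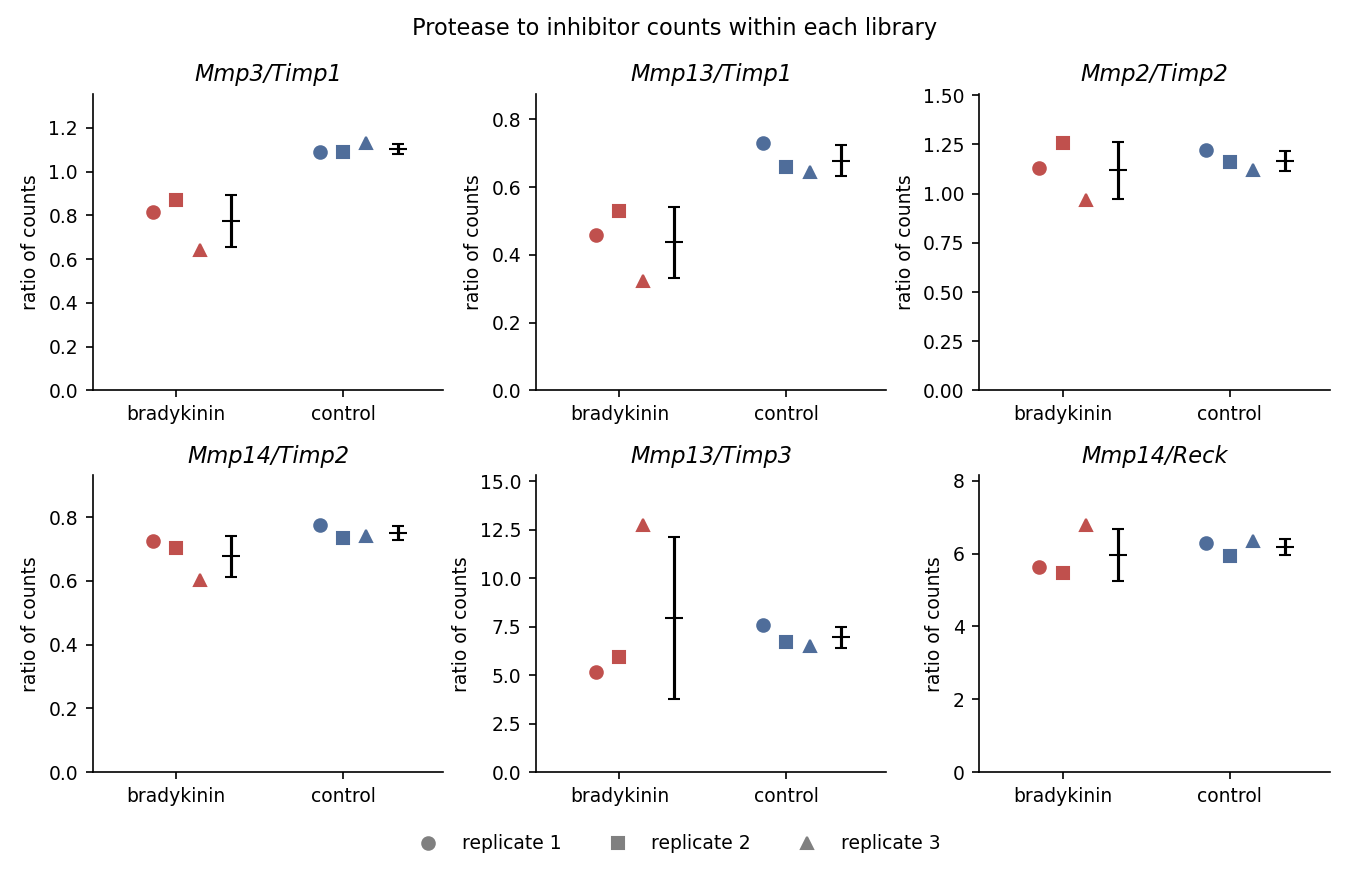
Ratio of protease to inhibitor counts within each library (y axis, from 0) for 6 pairs, in the 3 bradykinin and the 3 control libraries, with replicates 1, 2 and 3 as circle, square and triangle and black bars for the mean ± SD (n = 3). The Mmp3/Timp1, Mmp13/Timp1 and Mmp14/Timp2 ratios are lower in every bradykinin library than in any control.

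The rest of the family gave no call. Of 18 further genes, the remaining MMPs and Timp4, 15 were in the table and 7 were tested, and 0 changed in the 6 or the 5 libraries (median log2 fold change 0.04, 3 negative and 4 positive). Mmp9, a gelatinase of leukocytes, had 11, 9 and 6 counts with bradykinin and 4, 7 and 8 in controls. Mmp1, Mmp1b, Mmp12, Mmp20, Mmp21, Mmp25 and Timp4 had 0 to 5 counts per library. Mmp7, Mmp8 and Mmp27 were not analysed here. The smallest p belonged to Mmp16, a membrane-anchored MMP, at 21.3, 19.7 and 11.3 CPM with bradykinin and 23.8, 20.9 and 25.1 CPM in controls, a log2 fold change of -0.42 ± 0.23 (edgeR adjusted p = 0.737), and of -0.19 ± 0.10 without bradykinin replicate 3. Mmp24 (-0.47 ± 0.29), the stromelysin 2 gene Mmp10 (0.59 ± 0.43, and 0.04 ± 0.33 without that library) and Mmp15 (0.40 ± 0.38) followed. Mmp10 was at 5.14 CPM in bradykinin replicate 3, against 2.29 and 2.11 in replicates 1 and 2.

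Genes that activate proMMPs or clear them from the cell surface differed among themselves. Of 18 listed genes, 17 were tested and 0 passed in the 6 libraries (median log2 fold change -0.03). Without bradykinin replicate 3, 4 rose and 0 fell (median 0.06), against 1.95% and 1.15% of all genes. Serpine2, which encodes a protease inhibitor (protease nexin 1), rose in the 5 libraries by 0.40 ± 0.05 (edgeR adjusted p = 0.0014) and was higher still in bradykinin replicate 3 (1644 CPM, against 1179 and 1376 in replicates 1 and 2). The caveolin gene Cav1 (0.21 ± 0.05) and Thbs1, a matricellular protein that binds MMP2 (0.16 ± 0.04), also rose there. In bradykinin replicate 3 itself, Thbs1 was at 19599 CPM, below its control mean of 27613 CPM. Pcsk6, a furin-like convertase, was at 56.04, 61.03 and 49.1 CPM with bradykinin and 71.3, 68.02 and 69.8 CPM in controls (-0.33 ± 0.11, edgeR adjusted p = 0.707), and in the 5 libraries it was just short of the threshold (-0.25 ± 0.06, edgeR adjusted p = 0.0504). Plg, the plasminogen gene, was too low to test, with 0 to 3 counts in a library.

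Among 10 inducers of MMP genes and collagen receptors, all tested, 0 passed in the 6 libraries (median log2 fold change 0.13). In the 5, 2 rose and 0 fell, against 1.95% and 1.15% of all genes. The genes that rose were the TNF receptor gene Tnfrsf1a (0.23 ± 0.06, edgeR adjusted p = 0.047) and Fgfr1 (0.23 ± 0.05, edgeR adjusted p = 0.0339). Tnfrsf1a was at 154, 174 and 177 CPM with bradykinin and 139.7, 143 and 139 CPM in controls, with no overlap. Tgfb1 (0.38 ± 0.14), the syndecan gene Sdc4 (0.32 ± 0.15) and Bsg (0.34 ± 0.17), which encodes the MMP inducer EMMPRIN, did not pass in either fit, and their values in the 5 libraries were 0.22 ± 0.06, 0.14 ± 0.05 and 0.11 ± 0.05. Bsg was at 435, 474 and 689.8 CPM with bradykinin and 435, 414 and 413 CPM in controls, highest in the library that was also highest in Timp1.

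Of 15 transcription factors known to act on MMP genes, 14 were tested and 0 passed in the 6 libraries (median log2 fold change 0.01). In the 5 libraries 2 rose and 0 fell, against 1.95% and 1.15% of all genes. Junb, an AP-1 subunit, was at 102, 93.0 and 98.2 CPM with bradykinin and 70.7, 73.8 and 62.5 CPM in controls, and it rose in the 5 libraries by 0.50 ± 0.07 (edgeR adjusted p = 0.0022). Ets2 rose there by 0.29 ± 0.07 (edgeR adjusted p = 0.0311). Epas1, which encodes HIF-2α (-0.57 ± 0.17, edgeR adjusted p = 0.678), Jund (0.32 ± 0.14) and Cebpb (0.54 ± 0.25) did not pass in the 6 libraries, nor in the 5, where they were -0.47 ± 0.17, 0.16 ± 0.05 and 0.21 ± 0.10.

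Genes that encode proteins cut by MMPs were also read. All 14 listed genes were tested and 0 passed in the 6 libraries (median log2 fold change 0.11). Of the 14, 5 rose and 0 fell in the 5 libraries, against 1.95% and 1.15% of all genes. The aggrecan gene Acan rose there by 0.95 ± 0.04 (edgeR adjusted p = 1.6e-07), the tenascin gene Tnc by 0.37 ± 0.04 (0.00015), and the collagen VI chains Col6a1, Col6a2 and Col6a3 by 0.21 ± 0.05, 0.25 ± 0.05 and 0.44 ± 0.04. In the 6 libraries the value of Acan was 0.74 ± 0.19 (edgeR adjusted p = 0.626). Acan was at 301 CPM in bradykinin replicate 3, against 498 and 511 CPM in replicates 1 and 2 and a control mean of 262 CPM. In bradykinin replicate 3, Tnc (2719.7 CPM) and Col6a3 (2529 CPM) were below their control means of 3174 and 3702 CPM. Dcn (0.19 ± 0.10 in the 6 libraries and 0.12 ± 0.05 in the 5) and Col3a1 (0.17 ± 0.11) did not pass in either fit.

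Membrane ADAM proteases, several of which TIMP3 inhibits, gave 0 calls among 8 tested genes in the 6 or the 5 libraries (median log2 fold change -0.06). The smallest p were those of Adam19 (-0.30 ± 0.21), Adam15 (0.13 ± 0.10), Adam10 (-0.25 ± 0.21) and Adam33 (0.13 ± 0.12). In the 5 libraries, the values of Adam19, Adam15 and Adam10 were -0.07 ± 0.05, 0.05 ± 0.06 and -0.02 ± 0.05. Adam10 was at 107, 111 and 61.4 CPM with bradykinin and 109.9, 109.9 and 112 CPM in controls, low in the library where Timp3 and Reck were low. RECK also acts, in the brain vessels of mice, as a partner of the receptor ADGRA2 in Wnt7 signalling. Of 6 genes of that complex, 4 were tested and 0 passed in the 6 libraries (median log2 fold change -0.23). Adgra2 was at 398, 403 and 238 CPM with bradykinin and 473, 463 and 474 CPM in controls, and it fell in the 5 libraries by 0.23 ± 0.04 on the log2 scale (edgeR adjusted p = 0.0085). Lrp6 (-0.28 ± 0.34), Lrp5 (-0.07 ± 0.14) and Fzd4 (-0.17 ± 0.35) did not pass in either fit and turned to 0.06 ± 0.04, 0.06 ± 0.06 and 0.18 ± 0.15 in the 5 libraries. Wnt7b had 2 to 6 counts per library, and Wnt7a was not analysed here.

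Markers of other cell types also differed in level between the libraries. Of the fibroblast and annulus markers, Scx was at 54.5, 62.8 and 91.4 CPM with bradykinin and 62.02, 59.1 and 55.8 CPM in controls, and Pdgfra was at 279.5, 318 and 195 CPM with bradykinin and 308, 305 and 288 CPM in controls, both set apart in bradykinin replicate 3. The 5 smooth muscle markers summed to 2230 to 3122 CPM with bradykinin and 3023 to 3151 CPM in controls. In the 5 libraries 3 of them fell (Acta2, Tagln and Myh11) and 1 rose (Des), against 1.15% and 1.95% of all genes. Of 4 macrophage markers in the table, Cd68, Csf1r and Lyz2 had 0 to 6 counts per library, and Cd14 was at 9.69, 9.95 and 13.8 CPM with bradykinin and 9.29, 9.55 and 8.31 CPM in controls. Their part in the levels of the MMP and TIMP genes was not tested.

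The tested genes whose log2 levels followed those of Timp1 most closely over the 6 libraries, by Pearson correlation among genes of mean log2 CPM of 4 or more, were Polr1g, Ramp3 and Penk. Ramp3, a receptor partner of the calcitonin family, was at 50.5, 51.3 and 90.8 CPM with bradykinin and 46.2, 46.2 and 44.7 CPM in controls. For Mmp3 they were the shared row of Podn and Scp2, Marchf5 and Mipep. Marchf5 was at 25.6, 27.5 and 34.04 CPM with bradykinin and 30.98, 31.1 and 30.01 CPM in controls. Bradykinin replicate 3 was the highest library in each of these genes. The likeness without that library was not tested, and no coefficient is given.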

How the data were processed

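Polyadenylated RNA of primary rat nucleus pulposus cells was sequenced as paired-end reads, 3 libraries with bradykinin and 3 without. The table the authors deposited gives raw counts by Ensembl gene, in whole numbers. The submitters' processing notes name the build Rnor_6.0 and, as tools, RSEM 1.3.3, HISAT2 2.2.1, fastp 0.23.2, DESeq2 1.34.0, SAMtools and Bowtie2 2.4.5. RSEM divides reads among similar genes by estimate, so its values are fractional, and the sources used here do not state where whole numbers came in or whether the kit keeps strand. Every row had an Ensembl gene identifier.

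Genes were named through Entrez identifiers and a RefSeq gene table of GRCr8, which named 15073 of 17139 rows. Since the counts rest on another build, its coordinates are given for promoter windows only. Groups were compared with edgeR 4.0.16 in R 4.3.3 (filterByExpr, TMM, quasi-likelihood F test, two-sided, Benjamini-Hochberg over all tested genes, called at an adjusted p of 0.05 or less), as tested on simulated counts. SE is the log2 fold change over the root of F, and 95% intervals use the t distribution of that fit. CPM divide counts by TMM-scaled library sizes over tested genes. Ratios used counts plus 0.5 on the log2 scale. Counting SDs cover counting error only. Alternatives were limma-voom (limma 3.58.1), DESeq2 1.42.0, RLE and library-total scaling, other filters, each library left out and the replicate block. The 10 genes, the 7 lists and the tests were chosen with earlier results of these data known. Named are all 10 genes, up to 4 genes of each list with the smallest p, and every list gene called in the 6 libraries or without bradykinin replicate 3, except 1 gene that is counted in its list but not reported here. Of markers, those with a value beside a result are named, as chosen after their values were seen.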

Additional observations from a re-analysis of the deposited data

How the results depend on the processing

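Of the 12413 genes, 0 changed in the 6 libraries, and so with RLE factors, library totals, limma-voom, other filters and the replicate block, and without any single library other than bradykinin replicate 3, while DESeq2 called 44. Leaving out 1 library gave 0 to 388 genes and 0 to 1 of the 10 members. Without bradykinin replicate 3, chosen as an alternative with its effect known, RLE factors gave 374 genes, library totals 347, DESeq2 344 and limma-voom 374, and leaving out a further library 138 to 333. The members called there were 1 with RLE factors, 3 with library totals, 3 with DESeq2 and 2 with limma-voom (Mmp3 in each, Mmp14 in the last 3 and Mmp13 with totals and DESeq2), and 0 to 3 with a further library left out. A lone bradykinin library is then assumed to vary like the controls. Members without overlap numbered 7 without bradykinin replicate 3 with either scaling, with Timp3 among them by TMM and Mmp19 in its place by library totals.

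Over all of these alternatives, those without bradykinin replicate 3 included, the adjusted p was 0.00924 to 0.961 for Mmp3, 0.0146 to 0.935 for Mmp14, 0.0154 to 0.935 for Mmp13 and 0.0609 to 0.935 for Timp1. Without bradykinin replicate 3 the log2 fold change of Timp3 turned to 0.0317, with RLE factors 0.0297, with DESeq2 0.0297 and with limma-voom 0.0322, but not with library totals. Over all fits that left out 1 library or a pair, it ran from -0.429 to 0.0482, that of Mmp2 from -0.250 to 0.0615 and that of Reck from -0.260 to 0.0366. The log2 difference of the Mmp2 to Timp2 ratio ran from -0.157 to 0.0314 and that of Mmp13 to Timp3 from -0.322 to 0.326, both turning without bradykinin replicate 3. The cause was not tested. The replicate numbers are not said to pair cultures, and deviations of same-numbered libraries correlated at -0.10, -0.02 and -0.06. With the replicate block 0 genes and 0 members changed, as without it. The low counts of Mmp11 and Timp3, and groups of 3, limit what can be detected.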
